A study of Mus musculus with 2 samples.

Results

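The regulatory T cell signature described here comprised 10 genes, *Foxp3*, *Il2ra*, *Ikzf2*, *Ikzf4*, *Tnfrsf4*, *Tnfrsf9*, *Tnfrsf18*, *Lrrc32*, *Ccr8* and *Izumo1r*, chosen by gene symbol from the 32285 genes of the count tables, and all 10 were found. Single-cell RNA sequencing on the 10x Genomics platform was done on sorted live cells of subcutaneous tumors, grown from implanted MC38 cells, a colon carcinoma line of the mouse. There was 1 library from wild type *Lmo7*+/+ mice and 1 library from *Lmo7*-/- mice, which carry a whole-body knockout of *Lmo7*, a LIM domain protein gene, in the C57BL/6 background. The hosts were female and 6 to 8 weeks old at implantation per the study's methods, the number of mice behind each library was not given in the sources used here, and the implanted MC38 cells carry their own *Lmo7* gene in hosts of either genotype. With 1 library per genotype there were no replicates, so no comparison was tested and all intervals given below are exact 95% intervals that cover counting error only.

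Regulatory T cells (Tregs) restrain other lymphocytes, and in tumors they are known for a strongly activated state. Their defining transcription factor is *Foxp3*, which acts together with Ikaros family factors such as Helios (*Ikzf2*) and Eos (*Ikzf4*). On the surface they carry the high-affinity interleukin-2 receptor chain CD25 (*Il2ra*), costimulatory receptors of the TNF receptor superfamily, the latent TGF-beta carrier GARP (*Lrrc32*), the chemokine receptor *Ccr8* and folate receptor 4 (*Izumo1r*). Several of these genes are also known to be switched on in other T cells upon activation, so the question here was how widely each was expressed among the T cell subsets, the NK cells and the myeloid cells of the tumor, and whether its level differed between the libraries.

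The 10 genes lie on 7 chromosomes in the GRCm38 annotation. *Foxp3* spans chrX:7573644-7595245, *Il2ra* chr2:11642807-11693193, *Ikzf2* chr1:69531214-69687245, *Ikzf4* chr10:128630843-128645991 and *Lrrc32* chr7:98489283-98502181. The 3 TNF receptor genes share chromosome 4, with *Tnfrsf9* at chr4:150914562-150946102, *Tnfrsf4* at chr4:156013843-156016612 and *Tnfrsf18* at chr4:156026164-156028895. *Tnfrsf4* and *Tnfrsf18* are separated by 9551 bases that hold 2 genes outside the list. *Ccr8* at chr9:120092114-120094906 and *Izumo1r* at chr9:14885814-14903949 share chromosome 9. *Ikzf2*, *Ikzf4* and *Izumo1r* are on the minus strand and the other members on the plus strand. Protein-coding genes on the opposite strand overlap *Foxp3* (*Ppp1r3f* and *Ccdc22*) and *Tnfrsf9* (*Camta1*), and *Flicr* overlaps *Foxp3* on the same strand. Whether the counting used strand was not given in the sources used here, so reads from these overlaps cannot be assigned with certainty. *Camta1* had 2 and 3 counts in the Treg-like cells described below, 770 and 393 in the tumor-like cells and 332 and 272 in the macrophage-like cells, where *Tnfrsf9* had 412 and 578.

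Promoter windows of 300 bases, from 250 bases before to 50 bases after an annotated start, were taken from RefSeq (GRCm38.p6) and covered 7 of the 10 genes with 9 windows. *Ikzf2*, *Ikzf4* and *Lrrc32* had none. The windows below belong to the transcription factor, the interleukin-2 receptor chain and the 3 TNF receptors, whose levels are compared in the following paragraphs, and the capitals mark matches to the motifs searched on both strands: forkhead TGTTTAC, AP-1 TGANTCA, STAT TTCNNNGAA, NFAT GGAAAA and the NF-kB consensus.
*Foxp3* (chrX:7580233-7580532, plus strand): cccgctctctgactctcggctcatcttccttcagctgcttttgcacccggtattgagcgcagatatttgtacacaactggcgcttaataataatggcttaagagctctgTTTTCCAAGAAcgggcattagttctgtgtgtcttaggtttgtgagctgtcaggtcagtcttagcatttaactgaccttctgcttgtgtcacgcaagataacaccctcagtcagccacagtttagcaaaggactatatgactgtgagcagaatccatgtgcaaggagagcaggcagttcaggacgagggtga
*Il2ra* (chr2:11642542-11642841, plus strand): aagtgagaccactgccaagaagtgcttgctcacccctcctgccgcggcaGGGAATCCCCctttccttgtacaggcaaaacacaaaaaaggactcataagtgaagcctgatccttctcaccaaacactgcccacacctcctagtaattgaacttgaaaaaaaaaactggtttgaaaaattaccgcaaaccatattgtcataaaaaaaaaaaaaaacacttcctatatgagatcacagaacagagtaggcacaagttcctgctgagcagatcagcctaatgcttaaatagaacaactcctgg
*Tnfrsf9* (chr4:150927749-150928048, plus strand): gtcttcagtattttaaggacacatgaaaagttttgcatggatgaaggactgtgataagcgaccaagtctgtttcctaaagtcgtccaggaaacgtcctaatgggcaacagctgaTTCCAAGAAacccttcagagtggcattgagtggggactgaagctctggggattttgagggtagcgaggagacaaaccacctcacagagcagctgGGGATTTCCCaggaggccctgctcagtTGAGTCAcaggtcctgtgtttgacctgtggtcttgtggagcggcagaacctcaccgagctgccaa
*Tnfrsf18* (chr4:156026072-156026371, plus strand): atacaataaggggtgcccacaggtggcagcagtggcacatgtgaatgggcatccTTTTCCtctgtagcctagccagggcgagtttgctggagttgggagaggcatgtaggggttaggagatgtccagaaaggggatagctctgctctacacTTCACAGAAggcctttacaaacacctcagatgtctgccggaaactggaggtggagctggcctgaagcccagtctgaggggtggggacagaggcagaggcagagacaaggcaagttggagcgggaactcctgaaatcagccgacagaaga
*Tnfrsf4* (chr4:156013445-156013744, plus strand): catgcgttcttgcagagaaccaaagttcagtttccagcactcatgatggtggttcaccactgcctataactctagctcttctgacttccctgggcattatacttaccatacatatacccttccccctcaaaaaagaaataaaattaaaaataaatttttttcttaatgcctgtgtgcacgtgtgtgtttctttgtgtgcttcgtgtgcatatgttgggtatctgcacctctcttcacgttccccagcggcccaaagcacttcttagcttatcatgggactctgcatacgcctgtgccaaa
The *Foxp3* window shown held a STAT match that shares bases with an NFAT match on the opposite strand. The *Il2ra* window held an NF-kB match, the *Tnfrsf9* window shown a STAT, an NF-kB and an AP-1 match, the *Tnfrsf18* window an NFAT and a STAT match, and the *Tnfrsf4* window none. A second *Foxp3* window, not shown (chrX:7579426-7579725), held an NF-kB match on the opposite strand. A second *Tnfrsf9* window, not shown (chr4:150919905-150920204), held an NFAT match on the opposite strand. Over the 9 windows of the signature genes, the STAT motif was found in 3, the NF-kB motif in 4, the NFAT motif in 3, the AP-1 motif in 1 and the forkhead motif in 0. Among all 32851 windows the shares were 8.30% for STAT, 20.7% for NF-kB, 23.4% for NFAT, 7.81% for AP-1 and 3.65% for forkhead. These matches are descriptions of letters in these windows and say nothing on binding.

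The deposited tables held 16208 droplets for *Lmo7*+/+ and 15163 for *Lmo7*-/-, with 98582479 and 80648345 UMIs, a UMI being a tag that marks a captured RNA molecule. A floor of 500 genes and of 1000 UMIs per droplet and a ceiling of 15% on mitochondrial UMIs kept 13542 and 11860 cells. The median cell held 4536 UMIs in the first and 4304 in the second library. The 24-base barcodes of 279 droplets occurred in both libraries, 175 of them among kept cells, and none of these was a Treg-like cell. *Lmo7* itself had 0 counts in the Treg-like cells of both libraries. In endothelial-like cells it had 18 counts (36.4 CPM, the counts of a gene scaled to 1000000 UMIs) in the library labelled *Lmo7*+/+ and 12 counts (29.0 CPM) in the library labelled *Lmo7*-/-, and which part of the gene was deleted was not given in the sources used here, so these counts do not check the label.

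Clustering without the 10 signature genes gave 25 clusters, of which a T and NK cluster of 1308 cells (578 and 730) was divided into 9. The cluster called Treg-like held 136 cells, 63 in the library labelled *Lmo7*+/+ and 73 in the library labelled *Lmo7*-/-, which was 10.9% and 10.0% of the T and NK cells. Its name rests on Treg markers that include *Foxp3*, so the *Foxp3* level there is a description of how the cells were named. Among the other markers of that list *Cd4* was at 356 and 502 CPM, *Ctla4* at 897 and 1289 CPM, *Icos* at 1936 and 3621 CPM, *Ebi3* at 86.0 and 72.5 CPM and *Tigit* at 30.7 and 50.2 CPM. *Gpr83* had 0 counts in both libraries. Of the markers of other cells, *Cd8a* was at 12.3 and 5.58 CPM and the NK receptor *Ncr1* at 0. The other T and NK clusters used below were CD8 T-like (389 cells) and cycling CD8 T-like (240 cells), joined below as CD8 T-like cells (241 and 388), conventional CD4 T-like (130), memory-like (150), NK-like (130) and gamma delta-like (12). The conventional CD4 T-like cluster, named from its marker list, was mixed: 47 of its 130 cells had a *Cd4* UMI, 72 had a *Cd8a* or *Cd8b1* UMI and 3 of these had both. Its *Cd8a* level was 730.3 and 528 CPM, against 1177 and 1289.8 CPM in CD8 T-like cells, and its *Cd4* level was 440.5 and 450.2 CPM.

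*Foxp3* was the gene most concentrated in the Treg-like cells. It had 115 counts or 707 CPM (583 to 848) there in the library labelled *Lmo7*+/+ and 136 counts or 759 CPM (637 to 898) in the library labelled *Lmo7*-/-. Conventional CD4 T-like cells were at 34.8 and 15.5 CPM and CD8 T-like cells at 6.41 and 4.00 CPM. NK-like, monocyte-like, endothelial-like, B-like, mast-like and both kinds of dendritic-like cells had 0 *Foxp3* counts. The macrophage-like cells, 6301 in number, held 9 counts (0.181 and 0.349 CPM) and the 3909 tumor-like cells 2 counts. Over both libraries together the Treg-like interval overlapped that of no other cluster. Within the library labelled *Lmo7*-/- the 2 gamma delta-like cells had 0 counts, too few UMIs to be told apart from it.

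The Ikaros family factors were highest in the Treg-like cells but not restricted to them. *Ikzf2*, or Helios, was at 1174 CPM (1013 to 1353) in the Treg-like cells of the library labelled *Lmo7*+/+ and at 809 CPM (683 to 952) in those of the library labelled *Lmo7*-/-. It was detected throughout the T and NK cells, at 220.2 and 155 CPM in conventional CD4 T-like, 181 and 218 CPM in memory-like, 226 and 123 CPM in CD8 T-like and 85.0 and 111 CPM in NK-like cells. It was also found in tumor-like cells (30.4 CPM over both libraries) and mast-like cells (68.2 and 143 CPM), while macrophage-like cells had only 4.89 and 6.81 CPM. *Ikzf4*, or Eos, was at 418 CPM (324 to 529.8) and 290.2 CPM (217 to 381) in the Treg-like cells. The next highest named cells were the mature dendritic-like cells, which lie outside the T cell lineage, at 108 and 139 CPM. CD8 T-like cells were at 48.7 and 45.5 CPM, and macrophage-like cells had 2 counts of *Ikzf4* in all.

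*Il2ra*, the CD25 chain that gives the interleukin-2 receptor its high affinity, was at 1880.5 CPM (1676 to 2103) and 1741 CPM (1553 to 1945) in the Treg-like cells. The gamma delta-like cells came next, at 954 CPM in the 10 cells of the library labelled *Lmo7*+/+ and 1889.6 CPM, from 5 counts, in the 2 cells of the library labelled *Lmo7*-/-. Lower levels were measured in conventional CD4 T-like (354 and 279 CPM), mature dendritic-like (216 and 150.1 CPM) and CD8 T-like cells (80.7 and 121 CPM). NK-like cells were at 24.3 and 76.6 CPM. The other chains of the receptor followed another order: *Il2rb*, which carries the signal, was at 1370.4 and 1428 CPM in Treg-like cells but at 2806 and 2699 CPM in CD8 T-like cells, and the common chain *Il2rg* was at 572 and 809 CPM against 521 and 535 CPM. Of the 3 chains, *Il2ra* alone was at least 4-fold higher in Treg-like than in CD8 T-like cells in both libraries. *Il2* itself was nearly undetected, with 4 counts in conventional CD4 T-like and 0 in Treg-like cells.

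The 3 TNF receptor genes encode OX40 (*Tnfrsf4*), 4-1BB (*Tnfrsf9*) and GITR (*Tnfrsf18*), which give costimulatory signals to activated T cells. *Tnfrsf4* was at 1032 CPM (882 to 1201) and 1088 CPM (941 to 1252) in the Treg-like cells, at 429 and 439.9 CPM in conventional CD4 T-like cells, at 129 and 156 CPM in CD8 T-like cells, and had 3 counts in NK-like cells. *Tnfrsf18* was at 879 CPM (741 to 1035) and 1161 CPM (1008 to 1329.5) in the Treg-like cells and reached 452 and 492 CPM in conventional CD4 T-like, 244 and 346 CPM in memory-like, 210.1 and 280.5 CPM in CD8 T-like and 176 and 204 CPM in NK-like cells. These neighbouring genes thus shared their first and second place but differed in NK-like cells. *Tnfrsf9* was the most widely expressed of the 10. It was at 1506 CPM (1323 to 1706) and 1858 CPM (1664 to 2069) in Treg-like cells, 940.5 and 1063 CPM in CD8 T-like, 916 and 859 CPM in conventional CD4 T-like and 638 and 681 CPM in NK-like cells. Outside the lymphocytes it was at 194 and 369 CPM in mature dendritic-like, 193 and 198 CPM in the *Mmp12 Arg1* macrophage-like, 136 and 143 CPM in endothelial-like and 163 and 240.0 CPM in tumor-like cells.

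*Lrrc32* encodes GARP, which holds latent TGF-beta on the cell surface. It was at 289 CPM (212 to 384) and 374 CPM (289.7 to 475) in the Treg-like cells and had 0 counts in the CD8 T-like, conventional CD4 T-like, NK-like and gamma delta-like cells of both libraries. Its other sites were stromal, with 99.2 and 177 CPM in endothelial-like and 75.2 and 129 CPM in fibroblast-like cells. Among the lymphocytes *Lrrc32* was therefore nearly limited to the Treg-like cells, the exceptions being 3 counts in memory-like cells and 9 in the unnamed T clusters. *Izumo1r*, folate receptor 4, was at 252 CPM (181 to 342) and 312 CPM (236 to 406) in the Treg-like cells, 6.41 and 9.59 CPM in CD8 T-like cells and 29.0 and 5.17 CPM in conventional CD4 T-like cells, with 0 counts in NK-like, macrophage-like, monocyte-like, dendritic-like, endothelial-like and fibroblast-like cells. *Ccr8* was the least detected, with 5 counts (30.7 CPM, 9.98 to 71.7) and 8 counts (44.6 CPM, 19.3 to 88.0) in the Treg-like cells and 42 counts in all kept cells.

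**Figure D1:**
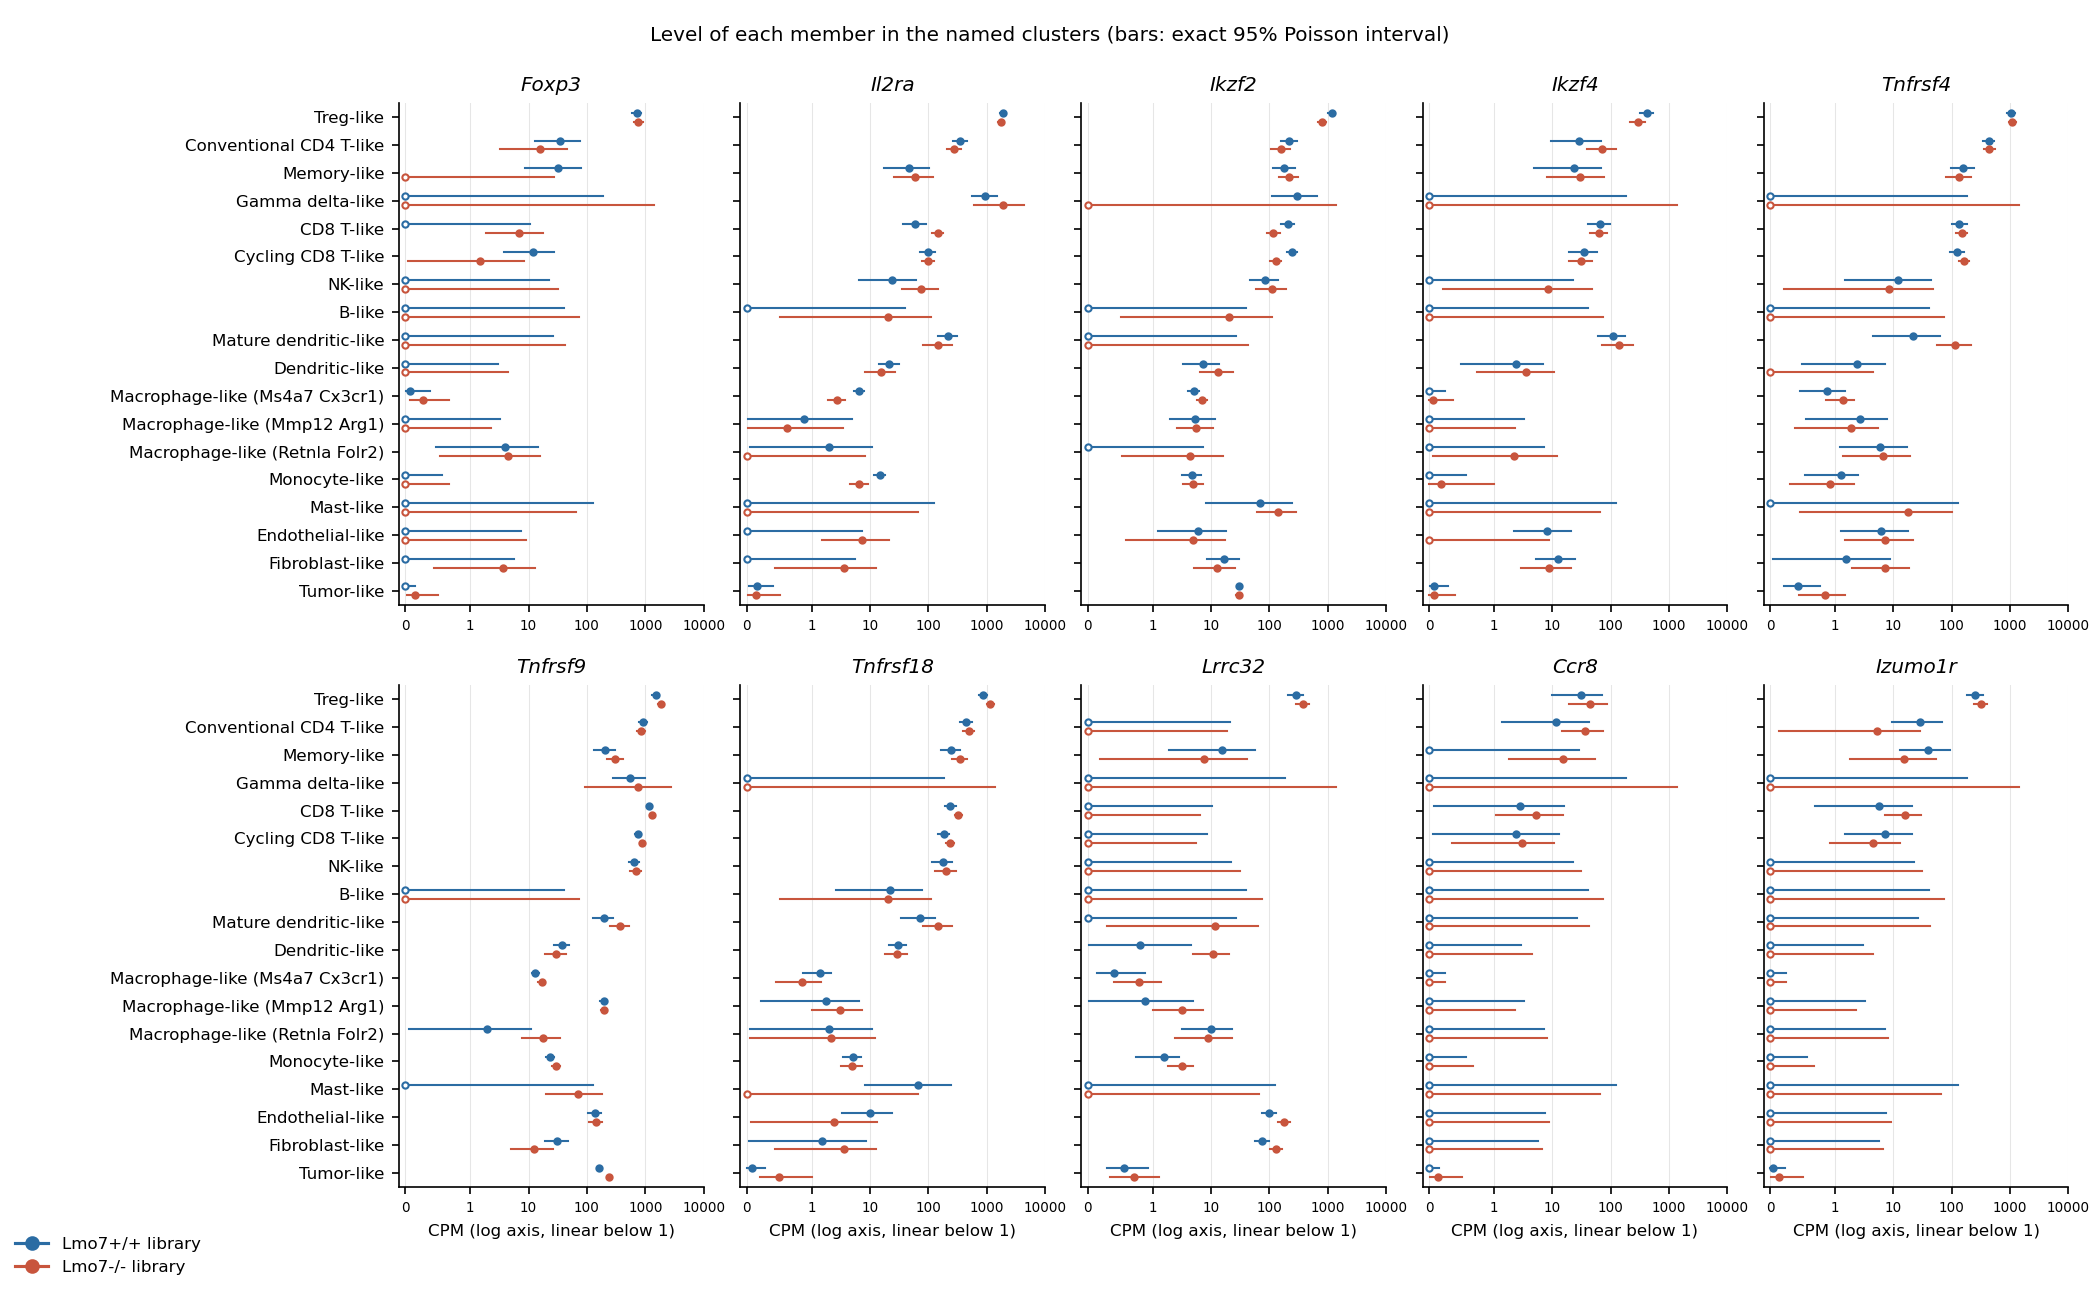
Level of each of the 10 genes (CPM, log axis that is linear below 1) in the named clusters, with the library labelled *Lmo7*+/+ in blue and the library labelled *Lmo7*-/- in red; bars are exact 95% Poisson intervals for counting error and open points are levels of 0. Treg-like cells stand furthest right in the panels except for *Il2ra* in the library labelled *Lmo7*-/-, where 2 gamma delta-like cells are at 1889.6 CPM, and they stand alone for *Foxp3* at 707 and 759 CPM and beside other T cells for *Tnfrsf9* at 1506 and 1858 CPM.

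Over both libraries together each of the 10 genes had its highest level in the Treg-like cells. For 9 of them the interval of that level did not overlap that of the next cluster. *Ccr8* was the exception, at 38.0 CPM (20.2 to 65.0) in Treg-like and 24.6 CPM (11.3 to 46.7) in conventional CD4 T-like cells. The order below the first place differed between the genes. Conventional CD4 T-like cells took the second place for *Tnfrsf4*, *Tnfrsf18* and *Ccr8*, CD8 T-like cells for *Tnfrsf9*, gamma delta-like cells for *Il2ra* and *Ikzf2*, mature dendritic-like cells for *Ikzf4* and endothelial-like cells for *Lrrc32*. A cluster of 46 unnamed T cells led by *Alox5ap* and *Il1b* took it for *Foxp3* (63.9 CPM) and *Izumo1r* (51.1 CPM), and Scrublet marked 13.0% of its cells as doublets. For *Foxp3*, *Ikzf2*, *Ikzf4*, *Lrrc32*, *Ccr8* and *Izumo1r*, the second and the third cluster did not differ beyond their intervals.

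Counted against CD8 T-like cells, which were 629 of the 1308 T and NK cells, 9 of the 10 genes were at least 4-fold higher in Treg-like cells in both libraries. Of 8270 genes with at least 20 counts, 111 or 1.34% passed the same fold, which is the background for this count. The clusters were formed without the 10 genes but from genes that vary with them, so this is a description and not a test. The highest ratios belonged to *Foxp3* and *Lrrc32*, which cannot be ranked against each other. *Foxp3* was 110.3-fold (45.9 to 346) and 189.9-fold (79.4 to 594) higher. The ratio was at least 75.1-fold and at least 156-fold for *Lrrc32*, computed against the limit that 3 counts per library would give, since CD8 T-like cells had none. *Izumo1r* was 39.3-fold and 32.6-fold higher, *Il2ra* 23.3-fold and 14.3-fold, and *Ccr8* 12-fold (1.96 to 126) and 11.2-fold (3.22 to 43.4), with wide intervals because of its few counts. Smaller ratios were found for *Ikzf2* (5.20 and 6.57), *Ikzf4* (8.58 and 6.37), *Tnfrsf4* (7.98 and 6.98) and *Tnfrsf18* (4.18 and 4.14, with intervals of 3.32 to 5.27 and 3.47 to 4.93 that hold the threshold). *Tnfrsf9* did not pass, at 1.60 and 1.75.

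Against the conventional CD4 T-like cluster as a whole, 6 of the 10 genes were at least 4-fold higher. The background was 61 of 5204 genes, or 1.17%, at least 4-fold higher in Treg-like cells in both libraries. The genes that passed were *Foxp3* (20.3 and 48.9), *Il2ra* (5.32 and 6.23), *Ikzf2* (5.33 and 5.21), *Ikzf4* (14.4 and 4.01), *Lrrc32* (at least 16.6 and at least 24.1) and *Izumo1r* (8.69 and 60.4, the second resting on 1 count in conventional CD4 T-like cells, with an interval of 10.4 to 2427). The 3 TNF receptors and *Ccr8* did not pass. *Tnfrsf4* was 2.41-fold and 2.47-fold higher, *Tnfrsf9* 1.64-fold and 2.16-fold, *Tnfrsf18* 1.94-fold and 2.36-fold, and *Ccr8* 2.65-fold and 1.23-fold. In at least 1 library the interval held the threshold for *Ikzf2* (3.75 to 7.76 and 3.50 to 8.0), *Ikzf4* (2.19 to 7.83) and *Izumo1r* (3.44 to 28.2). Because the cluster is mixed, the ratios were also taken against its 44 cells with a *Cd4* UMI and no *Cd8a* or *Cd8b1* UMI (21 and 23), a choice made after seeing the data. There 3 of the 10 genes were at least 4-fold higher in both libraries, *Foxp3* (8.26 and at least 15.8), *Ikzf2* (9.14 and 7.21) and *Lrrc32* (at least 4.5 and at least 7.77). The share of all genes past this fold against these 44 cells was not computed. *Il2ra* was at 3.82 and 12.1, *Ikzf4* at 3.91 and 4.53, *Izumo1r* at 3.93 and at least 6.5, *Tnfrsf4* at 1.24 and 1.51, *Tnfrsf9* at 1.47 and 4.14 and *Tnfrsf18* at 1.58 and 1.68. *Ccr8* was at 1.44 (0.161 to 67.9) and 0.696 (0.187 to 3.16), with too few counts to be compared.

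A high level in a small cluster does not mean that most of a gene's transcripts were found there. Of 350 *Foxp3* counts in all kept cells, 251 or 71.7% (66.7 to 76.4) lay in the Treg-like cells, and 86.3% in the T and NK cluster as a whole. Outside that cluster, 26 counts or 7.43% lay in 215 unnamed cells led by T cell genes such as *Nkg7*, *Cd8a* and *Cd3e*. Their highest marker list was that of macrophages. The share in Treg-like cells was 70.6% in the library labelled *Lmo7*+/+ and 72.7% in the library labelled *Lmo7*-/-. *Izumo1r* followed with 61.4% of 158 counts. For the other genes the Treg-like cells held fewer counts than the rest of the tumor together: 37.8% of 1637 for *Il2ra*, 35.4% of 339 for *Ikzf4*, 31.1% of 1169 for *Tnfrsf4*, 31.0% of 42 for *Ccr8*, 21.8% of 522 for *Lrrc32* and 20.6% of 1700 for *Tnfrsf18*. Endothelial- and fibroblast-like cells together held 46.6% of the *Lrrc32* counts, and CD8 T-like cells held 30.3% of the *Tnfrsf18* counts. The lowest shares belonged to *Ikzf2*, with 8.75% of 3842 counts in Treg-like and 31.3% in tumor-like cells, and to *Tnfrsf9*, with 3.58% of 16143 counts in Treg-like and 46.7% in tumor-like cells.

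**Figure D2:**
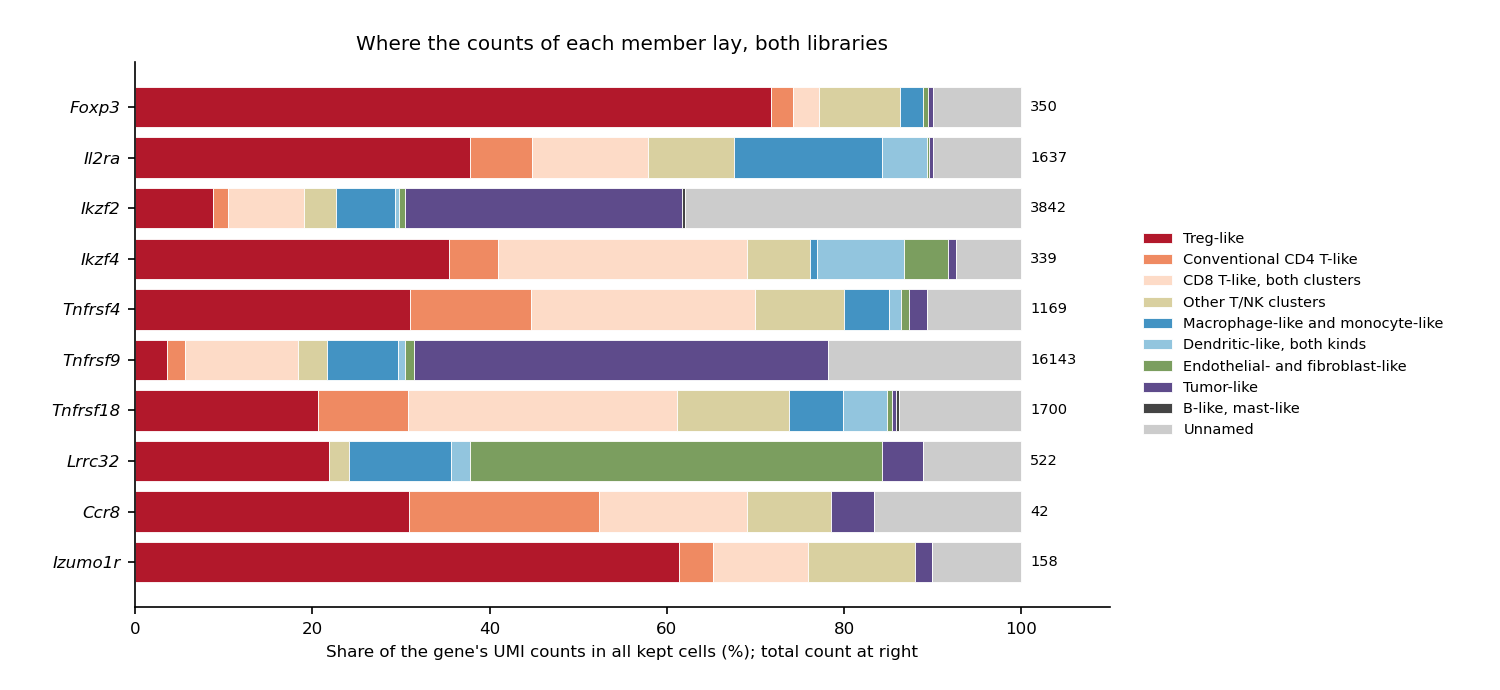
Share of each gene's UMI counts in all kept cells of both libraries (%) by group of cells, with the total count at the right of each bar. The Treg-like part covers 71.7% of the *Foxp3* bar and 3.58% of the *Tnfrsf9* bar, where tumor-like cells take 46.7%.

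To describe the genes without the clusters, T and NK cells were also divided by their own UMIs. There were 120 cells with a *Foxp3* UMI (57 and 63), of which 95 or 79.2% lay in the Treg-like cluster. They were set beside 128 cells with a *Cd4* UMI and no *Foxp3* UMI, and 817 cells with a *Cd8a* or *Cd8b1* UMI and no *Foxp3* UMI. Each cell was thinned to 1500 UMIs, which removed shallower cells and left 86, 84 and 669. The *Cd4* and *Cd8* groups share 18 cells that have UMIs of both. This choice leaves out Tregs in which a low count missed the gene, and 21 of the 128 *Cd4* cells lay in the Treg-like cluster. Nor need every cell with a *Foxp3* UMI be a Treg. Of the 120, 10 lay in an unnamed T cluster led by *Aqp1* and *Col6a1*, where Scrublet marked 60.0% of the cells as doublets. A further 3 lay in the CD8 T-like and 4 in the cycling CD8 T-like cluster.

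Of the cells with a *Foxp3* UMI, 79.1% (69.0 to 87.1) also had a *Tnfrsf9* UMI, 75.6% (65.1 to 84.2) an *Il2ra* UMI, 74.4% (63.9 to 83.2) a *Tnfrsf18* UMI, 69.8% (58.9 to 79.2) a *Tnfrsf4* UMI and 65.1% (54.1 to 75.1) an *Ikzf2* UMI. *Lrrc32* was detected in 37.2%, *Ikzf4* in 34.9%, *Izumo1r* in 25.6% and *Ccr8* in 5.81%. All 9 shares were lower in the cells with a *Cd8a* or *Cd8b1* UMI. There *Tnfrsf9* reached 65.9% (62.2 to 69.5), *Tnfrsf18* 30.5%, *Ikzf2* 18.8%, *Tnfrsf4* 17.6% and *Il2ra* 13.2%, while *Lrrc32* was detected in 0.299%, *Ccr8* in 0.747% and *Izumo1r* in 1.2%. For *Tnfrsf9* the gap between these groups was thus the smallest on the ratio scale. The *Cd4* cells were between the other groups for *Il2ra* (28.6%), *Tnfrsf4* (44.0%) and *Tnfrsf18* (44.0%), and were lowest of the 3 for *Tnfrsf9* (48.8%). Without thinning the shares in cells with a *Foxp3* UMI ran from 10.8% for *Ccr8* to 87.5% for *Tnfrsf18*, and for *Il2ra* they were 84.2%, 39.8% and 20.2% in the cells with a *Foxp3*, *Cd4* and *Cd8* UMI.

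Shares were also taken in cells of other lineages. For *Foxp3*, which these should lack, they show how often stray UMIs were seen there, whereas *Tnfrsf9* had levels of its own. The macrophage-like and tumor-like cells were deeper before thinning, so their shares do not bound what free RNA adds in the T cells. In macrophage-like cells, with a median of 5124 UMIs before thinning against 2811 in the cells with a *Foxp3* UMI, *Foxp3* was detected in 0.0853%, *Il2ra* in 0.443%, *Tnfrsf18* in 0.154% and *Tnfrsf9* in 3.50%. The *Tnfrsf9* share was 16.8% in the *Mmp12 Arg1* and 2.13% in the *Ms4a7 Cx3cr1* macrophage-like cells. In tumor-like cells, with a median of 9224 UMIs, *Foxp3* was detected in 0.0271% and *Il2ra* in 0 of 3693 cells, with an upper bound of 0.0998%. *Tnfrsf9* (19.6%) and *Ikzf2* (4.49%) stood above the other signature genes in the tumor-like cells. In NK-like cells *Tnfrsf9* was detected in 54.2%, *Tnfrsf18* in 20.5%, *Ikzf2* in 12% and *Il2ra* in 6.02%, and 0 of 83 cells had a UMI of *Ikzf4*, *Tnfrsf4*, *Lrrc32*, *Ccr8* or *Izumo1r*, with an upper bound of 4.35% for each.

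**Figure D3:**
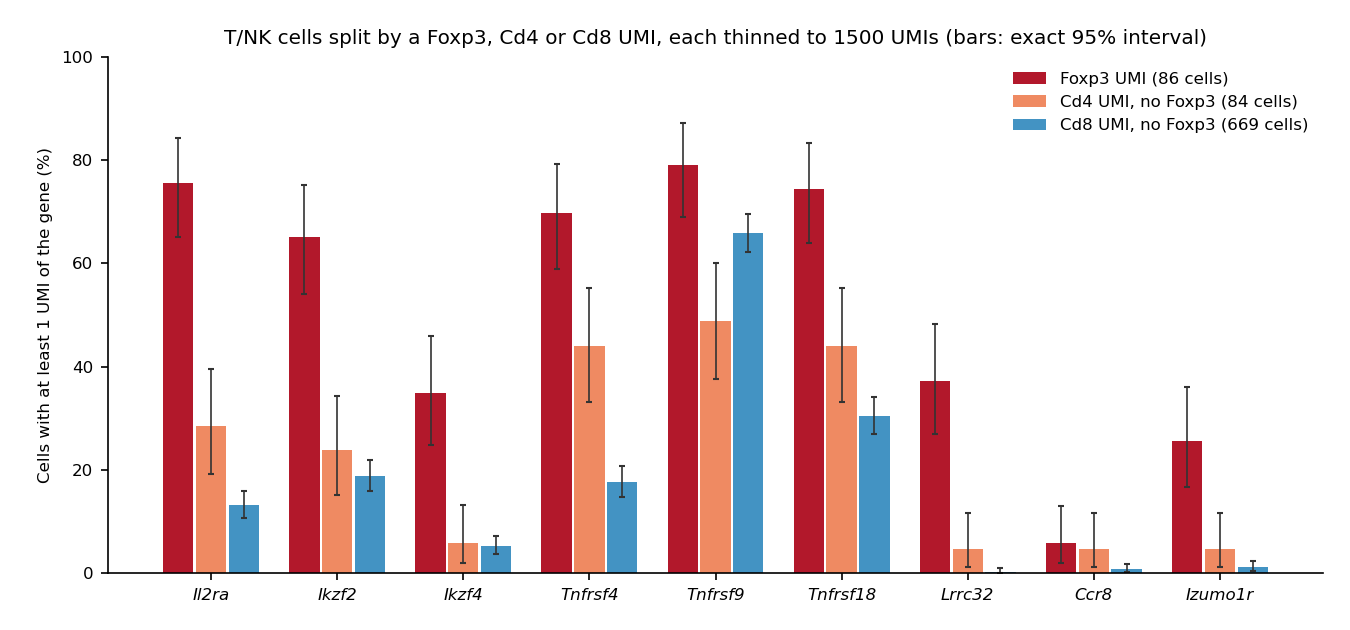
Share of T and NK cells (%) with at least 1 UMI of each gene after thinning to 1500 UMIs, for cells with a *Foxp3* UMI (86 cells), with a *Cd4* UMI and no *Foxp3* UMI (84 cells) and with a *Cd8a* or *Cd8b1* UMI and no *Foxp3* UMI (669 cells); bars are exact 95% intervals. The groups lie apart for *Il2ra* (75.6%, 28.6% and 13.2%) and close together for *Tnfrsf9* (79.1%, 48.8% and 65.9%).

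The genes were also found together in the same cells. After thinning, 80 of 86 cells with a *Foxp3* UMI, or 93.0% (85.4 to 97.4), carried at least 3 of the other 9 genes, 92.7% in the library labelled *Lmo7*+/+ and 93.3% in the library labelled *Lmo7*-/-. The median was 5 genes. Of the *Cd4* cells 31.0% (21.3 to 42.0) and of the *Cd8* cells 17.8% (15 to 20.9) reached 3, with medians of 2 and 1. In NK-like cells it was 2.41%, and in macrophage-like cells 0 of 5863, with an upper bound of 0.0629%. At a requirement of at least 4 genes the shares were 79.1%, 14.3% and 3.44%, and 0 of 83 NK-like cells had so many. By number, though, the *Cd8* cells with at least 3 genes (119) outnumbered those with a *Foxp3* UMI (80). Without thinning the shares at 3 genes were 95.8%, 60.9% and 38.3%, and 6.92% in NK-like cells.

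**Figure D4:**
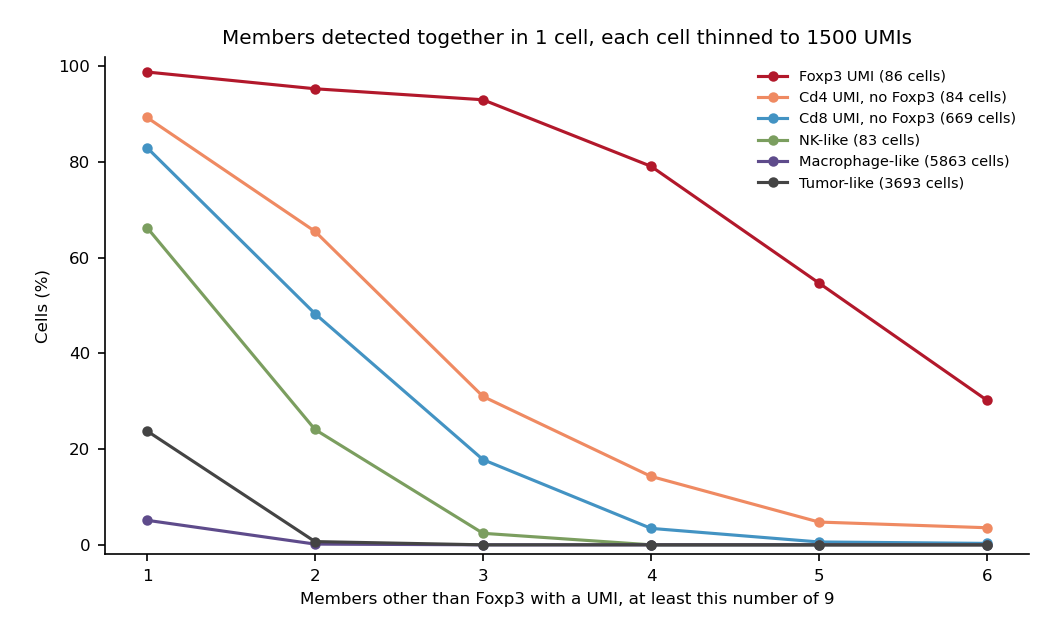
Share of cells (%) with a UMI of at least the given number of the 9 genes other than *Foxp3*, each cell thinned to 1500 UMIs, for 3 groups of T and NK cells and for NK-like, macrophage-like and tumor-like cells. At 3 genes the line of the cells with a *Foxp3* UMI is at 93.0%, against 31.0%, 17.8%, 2.41% and 0 in the others.

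Within the Treg-like cluster, cells with and without a *Foxp3* UMI had similar shares for some of the other genes and differed more for others. Only 17 of the thinned cells were without one, too few to measure small differences. *Foxp3* UMIs were present in 95 of 136 cells or 69.9% (61.4 to 77.4), and *Cd4* UMIs in 56.6%. A *Cd8a* or *Cd8b1* UMI was present in 8 cells, and all 8 also had a *Foxp3* UMI. After thinning, *Il2ra* was detected in 81.5% of 65 Treg-like cells with a *Foxp3* UMI and in 82.4% of 17 without, *Ikzf2* in 70.8% and 76.5%, and *Tnfrsf4* in 80.0% and 82.4%. *Tnfrsf18* (80.0% and 58.8%) and *Lrrc32* (44.6% and 23.5%) had higher shares in the cells with a *Foxp3* UMI, with overlapping intervals. Pairs of genes met in the same cell about as often as their separate shares would give: *Foxp3* and *Il2ra* in 41 of 82 cells against 39.2, *Il2ra* and *Ikzf2* in 52 against 48.2, and *Tnfrsf18* and *Izumo1r* in 19 against 15.9. Of the thinned Treg-like cells 96.3% (89.7 to 99.2) carried at least 3 of the 10 genes, with a median of 6.

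Between the libraries, the measured ratios of the 9 signature genes that could be compared in the Treg-like cells were under 2-fold. *Foxp3* was at a log2 ratio, library labelled *Lmo7*-/- over library labelled *Lmo7*+/+, of 0.10 (-0.27 to 0.47), *Il2ra* of -0.11 (-0.34 to 0.12) and *Tnfrsf4* of 0.08 (-0.23 to 0.38). None of the 9 genes with at least 20 counts was past 2-fold, where 221 of 3100 genes or 7.13% were, so 0 of 9 is near the share of any genes. Their median log2 ratio was 0.10, beside -0.01 over all 3100 genes. *Ccr8*, with 13 counts, was too low to be compared.

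In 3 of the 9 genes the counting interval left out 0, as it did in 270 of all 3100 genes or 8.71%. *Ikzf2* was lower in the library labelled *Lmo7*-/-, with 145 counts or 809 CPM against 191 counts or 1174 CPM, a log2 ratio of -0.54 (-0.86 to -0.22). *Tnfrsf9* was higher, with 333 against 245 counts and a log2 ratio of 0.30 (0.06 to 0.55), and so was *Tnfrsf18*, with 208 against 143 counts and a log2 ratio of 0.40 (0.09 to 0.72). *Ikzf4* had a ratio of -0.53 (-1.08 to 0.02), with an interval that reached past 2-fold, *Lrrc32* of 0.37 (-0.19 to 0.94) and *Izumo1r* of 0.31 (-0.30 to 0.93). In the cells chosen by a *Foxp3* UMI in place of the cluster the same 3 genes had intervals without 0, at -0.74 for *Ikzf2*, 0.35 for *Tnfrsf9* and 0.43 for *Tnfrsf18*. Keeping only cells of at least 1000 genes and 2000 UMIs left 23 and 29 Treg-like cells. There the ratios of *Tnfrsf9* (0.10) and *Tnfrsf18* (0.20) had intervals that held 0. So they did (0.17 and 0.31) once marked doublets were removed and all cells clustered anew, which gave 58 and 74 Treg-like cells. None of the 136 Treg-like cells of the main clustering was a marked doublet.

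Markers of other cells were compared in the same Treg-like cells. The 8 NK markers summed to 227 CPM in the library labelled *Lmo7*+/+, from 5 markers with *Ncr1*, *Eomes* and *Klri2* at 0, and to 5.58 CPM, from 1 marker, in the library labelled *Lmo7*-/-. The 10 macrophage markers summed to 246 and 189.7 CPM, with *Mrc1* at 0 in both, and the 8 fibroblast markers to 184 and 72.5 CPM. Other lists were higher in the library labelled *Lmo7*-/-, with 897 and 1350.3 CPM for the 8 monocyte markers, 203 and 251 CPM for the 9 dendritic markers, 24.6 and 78.1 CPM for the 13 tumor markers and 6729 and 7617 CPM for the 10 T cell markers. The median number of UMIs per Treg-like cell was 1697 and 1569. The part of these differences in the ratios above was not tested, and cell composition and host genotype cannot be told apart from the library itself.

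CD8 T-like cells had 6 signature genes with at least 20 counts, and none was past 2-fold, against 327 of 7846 genes or 4.17%. In 4 of the 6 the interval left out 0, as in 799 or 10.2% of all genes. *Ikzf2* was again lower in the library labelled *Lmo7*-/-, at 123 against 226 CPM and a log2 ratio of -0.87 (-1.20 to -0.55). This was found in the CD8 T-like cluster (-0.81, -1.31 to -0.31) and in the cycling one (-0.92, -1.35 to -0.49). *Il2ra* was higher, at 121 against 80.7 CPM and a log2 ratio of 0.59 (0.16 to 1.04). That difference lay in the cells outside the cycle, with 85 against 21 counts and a ratio of 1.31 (0.61 to 2.08), whereas cycling cells were at 99.6 and 98.7 CPM. *Tnfrsf18* had a ratio of 0.42 (0.15 to 0.69), *Tnfrsf9* of 0.18 (0.05 to 0.31), *Tnfrsf4* of 0.27 (-0.09 to 0.63) and *Ikzf4* of -0.10 (-0.71 to 0.54). The *Il2ra* value depended on the settings: it was 0.21 (-0.18 to 0.60) once marked doublets were removed and all cells clustered anew. That clustering gave 244 and 388 CD8 T-like cells. In the main clustering, marked doublets were 0.771% of the CD8 T-like and 0.417% of the cycling cluster.

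Outside the T cells the few signature genes with enough counts moved in their own ways. *Il2ra* was lower in the library labelled *Lmo7*-/- in macrophage-like cells, with 42 against 99 counts and a log2 ratio of -1.29 (-1.85 to -0.75), and in monocyte-like cells, with 36 against 96 counts and a ratio of -1.17 (-1.76 to -0.60), although its level there was at most 14.8 CPM. *Tnfrsf9* was higher in that library in macrophage-like cells pooled (0.44, 0.25 to 0.62) and in their *Ms4a7 Cx3cr1* cluster (0.36, 0.08 to 0.64), but not in the *Mmp12 Arg1* cluster (0.04, -0.21 to 0.30). The latter had the higher level and made up 240 of 2856 and 369 of 3445 macrophage-like cells, so the pooled value also holds this difference in mix. *Tnfrsf9* was higher in mature dendritic-like cells (0.93, 0.14 to 1.72) and in tumor-like cells (0.56, 0.50 to 0.63, from 4136 and 3406 counts) too. It was lower in the unnamed cluster led by *Cdc20* and *Ccnb1*, whose highest marker list was that of tumor cells, at 20.9 CPM (19 to 22.9) against 29.7 CPM (27.7 to 31.8), and in the one led by *Enpp2* and *Serpine2*, at 47.5 CPM (42.1 to 53.5) against 66.6 CPM (60.6 to 73.1). The tumor-like cells are taken to stem from the implanted line, which was the same in both hosts. Their highest marker list was that of fibroblasts (score 0.57, against 0.45 for tumor cells), with 3 tumor markers among their leading genes. *Lrrc32* was higher in that library in endothelial-like (0.83, 0.29 to 1.39) and fibroblast-like cells (0.78, 0.23 to 1.33). In NK-like cells the interval held 0 for each of the 3 genes with enough counts, *Ikzf2* (0.38, -0.83 to 1.58), *Tnfrsf9* (0.09, -0.34 to 0.53) and *Tnfrsf18* (0.21, -0.63 to 1.04).

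**Figure D5:**
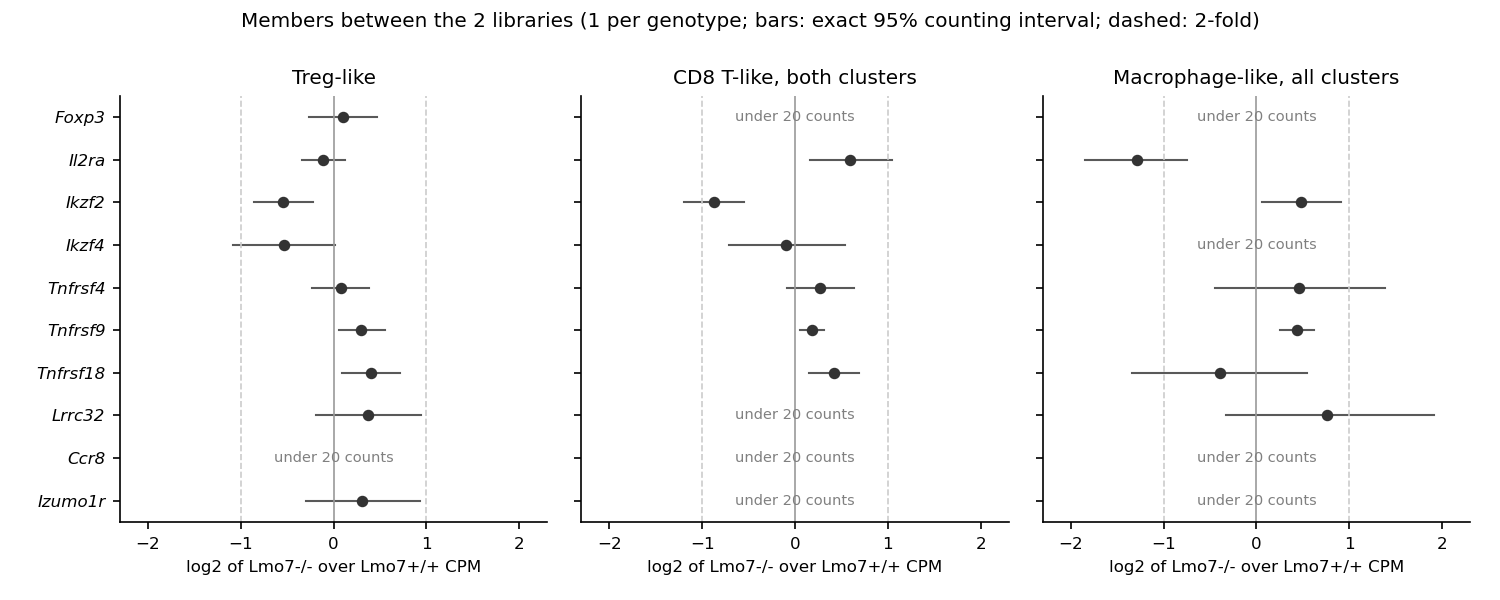
Log2 ratio of CPM, library labelled *Lmo7*-/- over library labelled *Lmo7*+/+, of each gene in Treg-like, CD8 T-like and macrophage-like cells; bars are exact 95% counting intervals, dashed lines mark 2-fold, and genes under 20 counts have no point. *Ikzf2* lies left of 0 in Treg-like (-0.54) and CD8 T-like cells (-0.87) and right of it in macrophage-like cells (0.48), and *Il2ra* is past 2-fold in macrophage-like cells alone (-1.29).

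The ligands and partners of the receptors were found mostly outside the Treg-like cells. *Tnfsf4*, the OX40 ligand, was highest in conventional CD4 T-like cells (120.3 CPM, 44 counts) and mature dendritic-like cells (97.5 CPM, 22 counts). *Tnfsf9*, the 4-1BB ligand, was highest in mature dendritic-like cells (177 CPM, 40 counts), followed by the Treg-like cells (61.4 CPM, 21 counts). *Tnfsf18*, the GITR ligand, had 21 counts in all, 10 of them in fibroblast-like cells. The 3 TNF ligands thus differed in the cells where they were highest. Of the *Ccr8* ligands, *Ccl1* was at 916 CPM in conventional CD4 T-like and 598 CPM in mast-like cells, and *Ccl8* at 2923 CPM in the *Retnla Folr2* macrophage-like cells. *Ccl1* reached 1387 CPM in the 46 unnamed T cells led by *Alox5ap* and *Il1b*. The integrin chain *Itgb8*, which with *Itgav* releases TGF-beta from GARP, was highest in the Treg-like cells, at 98.3 CPM (16 counts) and 100.4 CPM (18 counts), with 0 counts in CD8 T-like cells. *Itgav* was at 572 and 525 CPM in Treg-like against 272 and 235 CPM in CD8 T-like cells. *Nrros*, which holds latent TGF-beta on myeloid cells, was highest in the *Retnla Folr2* macrophage-like cells (465 CPM).

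Of the 12 ligands and partners 9 could be compared between Treg-like and CD8 T-like cells, and 1, *Itgb8*, was at least 4-fold higher in both libraries. Among 8 comparable relatives of the signature genes, such as *Ikzf1*, the TNF receptor *Tnfrsf1b* and *Cd27*, there were 0. *Ikzf1*, which encodes Ikaros, was at 129 CPM in both cell types of the library labelled *Lmo7*+/+ and at 189.7 and 174 CPM in the library labelled *Lmo7*-/-, and *Tnfrsf1b*, which encodes TNFR2, was 1.98-fold and 1.71-fold higher in Treg-like cells. Over all 8270 genes 1.34% passed this fold, so 0 of 8 is near the share of any genes and sets these relatives apart from none.

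Other genes known from Tregs formed the list with the most ratios past 4-fold. Of 22 that could be compared, 10 were at least 4-fold higher than in CD8 T-like cells in both libraries: *Ctla4*, *Il10*, *Ebi3*, *Klrg1*, *Prdm1*, *Il1rl1*, *Areg*, *Maf*, *Rora* and *Penk*. Over all 8270 genes 1.34% were. The list's median log2 ratio was 1.84 and 2.11, beside 0.04 and 0.09 over all 8270 genes. The transcription factor *Maf* was at 1499 and 1986 CPM against 44.8 and 39.2 CPM, *Klrg1* at 209 and 558 CPM against 8.97 and 3.20 CPM, and the opioid precursor *Penk* at 805 and 1278 CPM against 75.6 and 105 CPM. *Icos*, a costimulatory receptor, was 3.15-fold and 3.76-fold higher and *Capg*, an actin-capping protein gene, 1.49-fold and 2.12-fold. *Ctla4*, *Icos* and *Ebi3* also served to name the cluster, so they are no independent sign of it.

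Of the factors that act with or upstream of *Foxp3*, 14 could be compared and 1, *Runx1*, was at least 4-fold higher (5.40 and 4.99, from 9 and 10 counts). The share over all 8270 genes was 1.34%. *Ets1* was 1.77-fold and 1.57-fold higher and *Nr4a1*, which follows T cell receptor signals, 2.41-fold and 2.93-fold, whereas *Foxo1* (1.00 and 0.941) and *Nr4a3* (0.723 and 0.779) were not higher. Among the naive T cell genes *Lef1*, *Ccr7* and *S1pr1* were past the fold. The lymph node homing receptor *Ccr7* was at 535 and 485 CPM in the Treg-like cells, against 105 and 113 CPM in CD8 T-like cells. *Il7r* was 4.56-fold and 2.90-fold higher, *Klf2* 2.70-fold and 7.48-fold, and *Tcf7* had 0 counts in the Treg-like cells. Of 8 exhaustion and effector genes of CD8 T cells, the perforin gene *Prf1* and *Ifng* were at least 4-fold lower, as were 53 of all 8270 genes. *Nkg7* was at 749.7 and 921 CPM against 1613 and 1783 CPM, and *Pdcd1* at 270.4 and 145 CPM against 530.4 and 691 CPM. *Gzmb*, the granzyme B gene, was not lower in both libraries, with 1026 and 2689.5 CPM against 1419.7 and 2580.3 CPM.

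The same lists were compared between the libraries within the Treg-like cells, where 7.13% of all genes were past 2-fold. Of 7 exhaustion and effector genes 5 were past it, with *Gzmb* (1.39, 1.13 to 1.65), *Havcr2* (1.67), *Lag3* (2.1) and *Prf1* (1.63) higher and *Tox* (-1.36) lower in the library labelled *Lmo7*-/-, and the list's median was 1.39. Of 19 other Treg genes 3 were past 2-fold, *Klrg1* (1.42, 0.84 to 2.02), *Areg* (1.03) and *Il1rl1* (1.01), all higher in that library. Among the *Foxp3* factors *Rel* (-1.28, -2.02 to -0.57) was lower and *Satb1* (1.28, 0.47 to 2.15) higher, of 10 compared. *Ikzf3* (1.32) of 5 relatives, *Tnfsf9* (1.95) of 7 ligands and partners, and 0 of 5 naive genes were past it. With 7.13% of all genes past 2-fold, the lack of any such gene among the signature genes compared does not set them apart from others.

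The genes whose levels were most like those of a signature gene were sought over the 50 combinations of cluster and library, by Pearson's correlation of log2(CPM + 1). These points share libraries and depth, so the values are descriptions. Outside the list *Foxp3* was closest to *Cd5* (0.77), *Klrg1* (0.76), *Cd6* (0.75), *Penk* (0.75) and *Sv2c* (0.75), and within it to *Izumo1r* (0.87) and *Tnfrsf4* (0.78). It was least like *Lrrc32* (0.45) and *Tnfrsf9* (0.47). *Izumo1r* was closest to *Cd6* (0.89) and *Cd5* (0.88), *Il2ra* to *Ltb* (0.91) and *Sdf4* (0.89), *Ikzf2* to *Lat* and *Skap1* (both 0.84), and *Ikzf4* to *Trac* and *Bdh1* (both 0.82). *Tnfrsf4* was close to *Cd2* (0.90), *Tnfrsf18* to *Il12rb2* and *Nkg7* (both 0.91), *Tnfrsf9* to *Zdhhc18* (0.81) and *Vgll4* (0.79), and *Ccr8* to *A430093F15Rik* and *Cd6* (both 0.79). *Lrrc32* had no close match, its highest being *Lamc1* (0.52) and *Il6st* (0.51).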

How the data were processed

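Single-cell RNA was measured in 2 libraries, 1 per genotype. The authors deposited gene by barcode tables of raw UMI counts. The submitters' processing notes name Cell Ranger 2.1.1 and mm10, and whether strand was used is not given in the sources used here. The signature genes and the other gene lists were chosen with earlier results of these data known. Droplets under 500 genes or 1000 UMIs, or over 15% mitochondrial UMIs, were left out. Scrublet, run in scanpy 1.11.5, marked 2.90% and 2.60% of the kept cells as doublets, which stayed in. Counts were scaled to 10000 per cell and logged, and 2000 variable genes, without the 10 signature genes, gave 30 principal components and 20 neighbours for clustering (igraph 0.11.9) at a resolution of 0.5, and of 0.8 within the T and NK cluster. Clusters were named from marker lists, and the limits for naming were set after the data were seen.

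Counts were summed per cluster and library and given as CPM of the summed UMIs with exact Poisson intervals. Shares have Clopper-Pearson intervals, and ratios of CPM have exact intervals from the split of the counts (scipy 1.17.1), all at 95%. Where a group had 0 counts a ratio was computed against 3 counts. Genes needed at least 20 counts to be compared. For shares of cells each cell was thinned to 1500 UMIs. There were no replicates, so no p-values were computed. The Treg-like cells held 162727 and 179214 UMIs, which limits the precision of the ratios there, and intervals cover counting error only. The calculation of ratios and intervals and the clustering were tested on simulated data. TMM scaling (edgeR 4.0.16) and other filters, resolutions and thinning depths were tried as alternatives. By a fixed rule the text names all 10 signature genes, up to 4 of the most counted genes of each other list, and the non-members most correlated with each signature gene (5 for *Foxp3*, 2 for each other). Genes past a fold and other genes outside this rule were named after their values were seen. Some genes of these lists are not reported here. Sequences came from RefSeq.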

Additional observations from a re-analysis of the deposited data

Results flagged for a closer look

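*Il2ra* differed between the libraries in opposite directions in 2 cell types. The log2 ratio, library labelled *Lmo7*-/- over library labelled *Lmo7*+/+, was 0.59 in CD8 T-like cells and -1.29 in macrophage-like cells, and the intervals of both ratios left out 0. *Ikzf2* was the reverse, with 0.48 in macrophage-like cells and -0.87 in CD8 T-like cells. These differences between cell types were not tested. The macrophage-like values rest on levels under 7 CPM.

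Droplets that did not pass the cell filter also held *Foxp3* counts. There were 21 in the 2666 droplets left out of the library labelled *Lmo7*+/+ and 23 in the 3303 left out of the library labelled *Lmo7*-/-, which was 11.4% of 184 and 11% of 210 counts in all droplets.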

How the results depend on the processing

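No paired analysis was possible because there was 1 library per genotype. None of the 15 ratios between libraries moved by more than its counting interval in 189 alternative values. The values that changed sign all had intervals that held 0, for *Foxp3* (-0.14 with the lenient filter, -0.03 without doublets), *Il2ra* (0.07 in cells with a *Foxp3* UMI) and *Izumo1r* (-0.01, lenient filter) in Treg-like cells and *Ikzf4* in CD8 T-like cells (0.01, lenient filter, and 0.19, lower resolution). *Ikzf2* in Treg-like cells stayed between -0.81 and -0.51 with intervals without 0. Of 50 alternative values for the 5 summary results 47 were counted as unchanged. The rule for this was loose for numbers of genes, as a fall from 9 to 7 still counted as unchanged. Shares counted as unchanged if they lay in the interval of the main value. The number of signature genes at least 4-fold higher in Treg-like than in CD8 T-like cells, 9, went to 8 with TMM scaling or a lower resolution (*Tnfrsf18* lost), to 8 with a minimum of 50 counts (*Ccr8* lost) and to 7 with the stricter cell filter, which left 23 and 29 Treg-like cells. Against conventional CD4 T-like cells the number went from 6 to 3 when only cells with a *Cd4* UMI and no *Cd8* UMI were used, chosen after seeing the data. For these cells the share over all genes was not computed. The number past 2-fold between libraries in CD8 T-like cells went from 0 to 1 (*Ikzf2*, -1.0) without marked doublets. The share of *Foxp3* counts in Treg-like cells went from 71.7% to 64.8% with the stricter filter, and the share of cells with a *Foxp3* UMI that carried at least 3 other signature genes from 93.0% to 79.2% on thinning to 1000 UMIs, where fewer UMIs are kept per cell. The intervals of *Il2ra* in CD8 T-like cells held 0 without doublets (0.21), with the lenient filter (0.31), with 20 components (0.37) and with a lower resolution (0.34), and those of *Tnfrsf9* and *Tnfrsf18* in Treg-like cells held 0 without doublets (0.17 and 0.31). With other filters and without marked doublets the cells were clustered anew, so the cells of each cluster changed too. The causes were not tested. Removing cells with a shared barcode, chosen after seeing the data, gave 9 genes past 4-fold, 0 past 2-fold between libraries in Treg-like and in CD8 T-like cells, and shares of 72.1% and 91.8%. Depth limits *Ccr8* most, with 13 counts in Treg-like cells.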
